A study of Mus musculus with 48 samples.

Results

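Neutrophils sorted from AT3 tumours were compared with neutrophils sorted from E0771 tumours, over all genes. The 6 libraries, 3 of each tumour, were taken by their titles out of 48 mouse RNA-seq libraries that also hold neutrophils of 2208L and T11 tumours, macrophages of all 4 tumours and 8 cultured breast tumour lines. AT3 is a mammary tumour line from an MMTV-PyMT transgenic mouse, and E0771 comes from a mammary tumour that arose in a C57BL/6 mouse. Per the labels, the cells came from tumours in vivo with no treatment named, and neutrophils were sorted as live CD45+ CD11b+ Ly6G+ cells with medium to low Ly6C. The AT3 libraries are labelled C57BL/6, as are E0771 neutrophils 2 and 3, while E0771 neutrophil 1 is labelled BALB/C. The AT3 and E0771 macrophages carry the same labels, BALB/C for E0771 macrophage 1 and C57BL/6 for the others, and all 2208L and T11 libraries are labelled BALB/C. The labels give no age and do not say whether a library is 1 mouse or a pool, so the p-values measure the spread between these libraries, which may be technical.

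Neutrophils are short-lived granulocytes that leave the bone marrow with their granule proteins largely made, and follow chemoattractants such as Cxcr2 ligands, formyl peptides and leukotriene B4 into tissue. In tumours they are known for making further chemokines, reactive oxygen species and arginase, and for changing their transcription under hypoxia, interferons and growth factors. Type I interferon switches on a set of antiviral genes in nearly every cell type, neutrophils included.

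Most of the counts in these libraries came from ribosomal RNA or from a low, even background. Total counts were 1344962, 3341097 and 2012831 in AT3 libraries 1, 2 and 3, against 1336207, 1728900.0 and 1198670.0 in E0771 libraries 1, 2 and 3. The ribosomal transcript Rn45s took 62.8 ± 8.89% of them in AT3 and 58.9 ± 3.67% in E0771 neutrophils (SD, n = 3 each). Outside Rn45s there remained 632490.0, 993686 and 700051 counts in AT3, against 605665, 669300.0 and 470712 in E0771. Olfactory and vomeronasal receptor genes, which neutrophils are not known to use, stood for the background. These 1431 genes held 12403, 6249 and 12038 CPM (counts scaled to a common total outside Rn45s) in AT3, against 8335, 7024 and 8939.6 CPM in E0771. AT3 neutrophil 2 lay below every E0771 library and the other AT3 libraries above them, so the groups overlapped (means 10230.2 ± 3452 and 8099 ± 979 CPM, exact permutation p = 0.4, 2-sided, where 0.1 is the smallest that 3 against 3 allows). A gene is called above background here where its CPM per base of exon, averaged over the 12 neutrophil libraries, was 10 times the receptor genes' value or more. These genes held 31.5, 55.6 and 45.1% of the counts outside Rn45s in AT3, against 33.9, 37.7 and 36.3% in E0771, so that AT3 neutrophil 1 carried the smallest share and AT3 neutrophil 2 the largest.

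**Figure D1:**
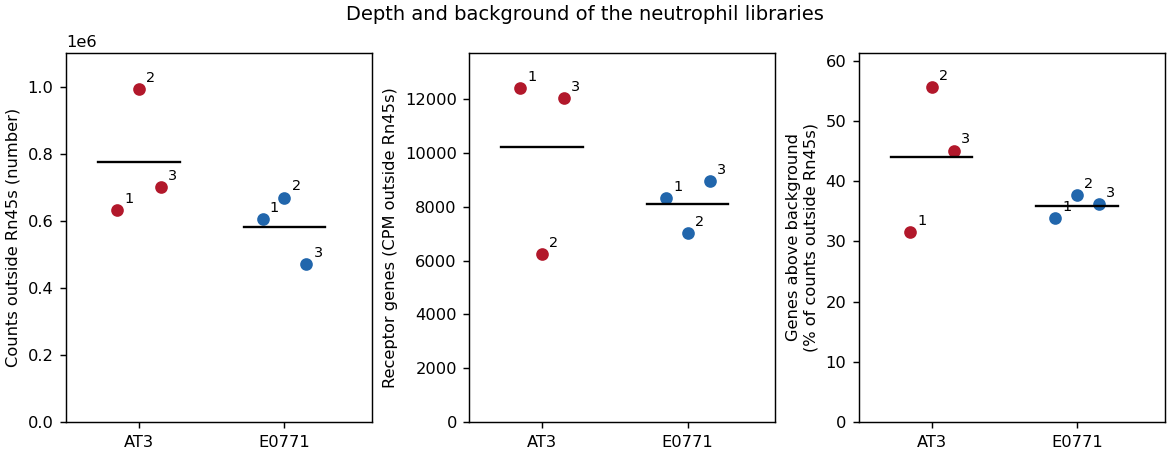
Depth and background of each neutrophil library, 1 numbered point per library with AT3 left of E0771 and the group mean as a line. The panels show counts outside Rn45s, CPM of the 1431 receptor genes and the percentage of counts in genes above background. The AT3 points spread from 31.5% to 55.6% in the last panel and enclose the 3 E0771 points.

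The label of the cells held. S100a8 and S100a9, the calcium-binding proteins that fill the neutrophil cytosol, and Cxcr2, their main chemokine receptor, were above background in all 6 libraries and near 0 in macrophages of the same tumours. On a scale shared with macrophages, S100a8 had 5878 ± 2712 CPM in AT3 neutrophils and 4.72 ± 2.44 CPM in AT3 macrophages, and 1561 ± 502 CPM in E0771 neutrophils and 7.900 ± 4.97 CPM in E0771 macrophages (SD, n = 3 each). Ly6g, the sort marker, is not analysed here. The strain label of E0771 neutrophil 1 did not hold. All 10 genes that separated the BALB/C from the C57BL/6 groups at least 4-fold, chosen without any E0771 library, lay nearer the C57BL/6 side in this library and in the other E0771 libraries. Trim12a, a restriction-factor relative, had a mean of 33.8 CPM in AT3 and 0 CPM in T11 and 2208L neutrophils, and 34.6 CPM in the E0771 library labelled BALB/C. The library was kept, and counts without it are given below.

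Of 17202 genes tested with edgeR's quasi-likelihood test on all 12 neutrophil libraries, 782 passed an adjusted p of 0.05 (4.55%), 413 higher in AT3 (2.4%) and 369 lower (2.15%). Among the 1983 genes above background, 254 passed (12.8%), 223 of them higher (11.2%) and 31 lower (1.56%). That balance depends on the centring, because most of the genes tested were not above background and these set the scaling factors. With factors from genes above background the median of all genes shifted by -0.34 on the log2 scale, 450 genes passed (2.62%), 114 higher (0.663%) and 336 lower (1.95%), and the higher share of calls was 25.3% against 52.8%. The median log2 difference of genes above background was 0.46 by the main factors and -0.01 by these, and differences are read against that median below. The number of calls also rests on single libraries. It was 2691 (14.9%) without AT3 neutrophil 1 and 381 without AT3 neutrophil 3. It was 228 (1.25%), 209 and 278 without E0771 neutrophils 1, 2 and 3. Of the 20 genes named by size below, 18 passed under all 14 alternatives, and all 20 passed without the E0771 library labelled BALB/C. The rule that named them required libraries without overlap, so their lack of overlap below is no separate result. Over all genes tested 21.3% had no overlap, and 24.5% of genes above background.

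**Figure D2:**
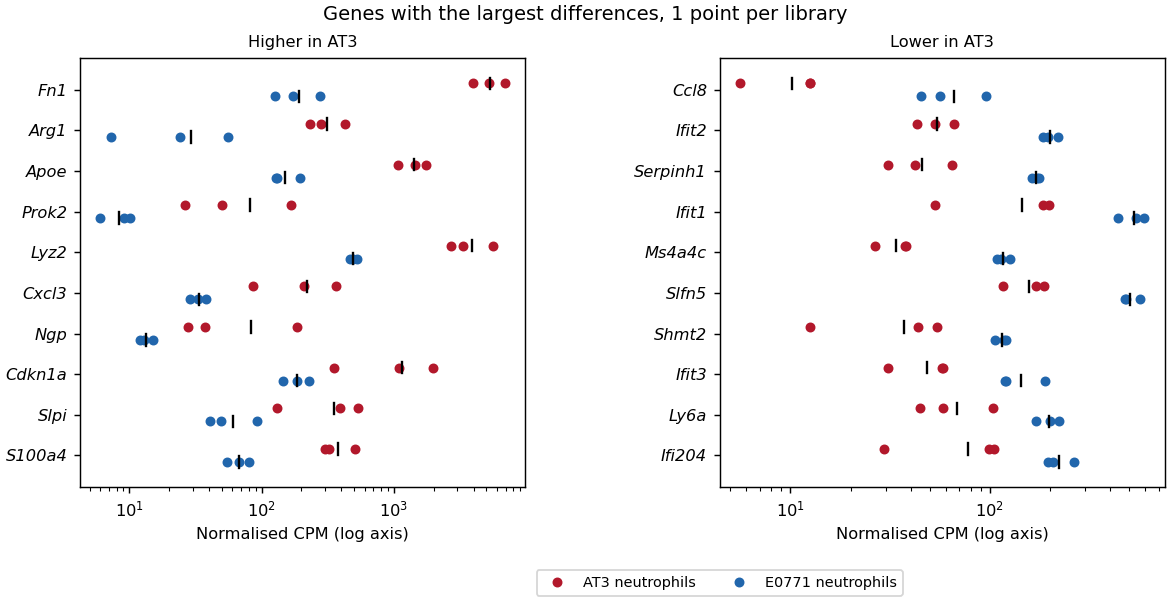
Normalised CPM on a log axis of the 10 genes with the largest log2 difference in each direction among called genes above background whose libraries do not overlap, 1 point per library, AT3 above E0771 in each row and a bar at the group mean. Every AT3 point lies right of the E0771 points in the left panel and left of them in the right panel, which the choice of the genes fixes.

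Genes made mainly by neutrophils were among the largest differences. Prok2, a secreted peptide of granulocytes known as a mediator of tumour angiogenesis, had 26.5, 166 and 50.02 CPM in AT3 libraries 1, 2 and 3, against 9.03, 10.1 and 6.00 CPM in E0771, a log2 difference of 3.22 ± 0.51 (SE; adjusted p = 2.69e-04). The groups did not overlap, and the values rest on 19, 119 and 32 counts in AT3 and 6, 7 and 3 counts in E0771. Ngp, a secondary granule protein, had 27.9, 186 and 37.5 CPM in AT3, against 15.1, 12.9 and 12.01 CPM in E0771, a log2 difference of 2.63 ± 0.50 (SE; adjusted p = 0.00194). AT3 neutrophil 2 was far above the other AT3 libraries for Ngp, and without it the adjusted p was 0.0914. Slpi, an inhibitor of neutrophil elastase, had 129.7, 532 and 392 CPM in AT3, against 40.7, 48.9 and 92.1 CPM in E0771, a log2 difference of 2.56 ± 0.41 (SE; adjusted p = 2.69e-04). Retnlg, a resistin-like protein of granulocytes, had 218, 1410.0 and 782 CPM in AT3, against 155, 174 and 228 CPM in E0771, a log2 difference of 2.11 ± 0.46 (SE; adjusted p = 0.00542), and AT3 neutrophil 1 lay within the E0771 range. All of these were close to absent from macrophages, where Prok2, Ngp, Slpi and Retnlg averaged 0, 2.47, 3.39 and 1.496 CPM in AT3 tumours and 3.23, 3.64, 5.11 and 4.41 CPM in E0771 tumours.

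The defining genes of neutrophils leaned the same way, with fewer calls. Of 11 tested genes of the identity list, Ngp and Retnlg passed, both higher in AT3, beside 11.2% higher among genes above background. The list's median log2 difference was 1.41, or 0.90 with factors from genes above background, where 5 passed. S100a8 had 4058, 11047 and 6984 CPM in AT3, against 1301, 1966 and 2562 CPM in E0771, and S100a9 had 3508, 12198 and 7908 CPM in AT3, against 1983, 2707 and 2928 CPM in E0771. Every AT3 library lay above every E0771 library for both, but the AT3 libraries differed among themselves, and the tests missed the threshold at log2 differences of 1.92 ± 0.61 (SE; adjusted p = 0.0585) and 1.63 ± 0.66 (SE; adjusted p = 0.147). Both passed with factors from genes above background (adjusted p = 0.00137 and 0.0261) and without AT3 neutrophil 1 (adjusted p = 0.00112 and 0.00656). Cxcr2 had 554, 2391 and 1393 CPM in AT3, against 464, 534 and 660.5 CPM in E0771, with AT3 neutrophil 1 inside the E0771 range (1.39 ± 0.49 log2, SE; adjusted p = 0.0907). Csf3r, the receptor for the growth factor G-CSF that drives neutrophil production, had 1149, 5197 and 3486 CPM in AT3, against 1527, 2200.4 and 2085 CPM in E0771, and the groups overlapped (0.76 ± 0.59 log2, SE; adjusted p = 0.489). Summed over the identity list, AT3 libraries held 10576, 36070.0 and 22339 CPM, against 6151, 8596 and 9398 CPM in E0771, with no overlap. AT3 neutrophil 2, with the largest share of counts above background, had the largest sum. AT3 neutrophil 1, with the smallest share, held 10576 CPM, against 9398 CPM in the highest E0771 library. The part of background in these sums was not tested. Without the E0771 library labelled BALB/C, 1 gene of the list passed.

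Some granule proteins were higher in AT3. Of 24 tested, 6 passed, all higher, beside 11.2% higher among genes above background, and the median was 0.76 (0.30 with factors from genes above background). Besides Ngp and Slpi these were Lyz2, Stfa2l1, Hp, the secreted glycoprotein haptoglobin, at 1.31 log2, and Wfdc21, listed under its older name 1100001G20Rik, a whey-acidic-protein relative. Wfdc21 had 44.6, 197 and 122 CPM in AT3, against 3.01, 23.01 and 32.02 CPM in E0771, a log2 difference of 2.69 ± 0.45 (SE; adjusted p = 4.55e-04). Lcn2, Mmp8, Mmp9 and Camp, proteins of secondary and tertiary granules, had log2 differences of 1.50, 1.20, 1.20 and 1.12 that did not pass. Mpo, the peroxidase of primary granules made in bone marrow precursors, was at -0.21 and Ltf at -0.03, neither called. Of the 7 subunits and helpers of the NADPH oxidase, which makes superoxide, Cyba, Ncf1 and Ncf4 passed. Cyba, the small membrane subunit, had 105, 231 and 178 CPM in AT3, against 49.7, 66.2 and 40.03 CPM in E0771, a log2 difference of 1.70 ± 0.32 (SE; adjusted p = 0.00178), with no overlap. The large membrane subunit Cybb was at 0.70 log2 and did not pass. Without the E0771 library labelled BALB/C, 5 granule genes and 1 oxidase gene passed. Macrophages held more of the called oxidase transcripts. On the scale shared with macrophages, Cyba stood at 34.6% of the macrophage level in AT3 and 17.98% in E0771. Ncf1 stood at 32.3% and 54.9%, and Ncf4 at 40.2% and 56.8%. In macrophages 4 of the 7 oxidase genes were higher in AT3, at a median log2 difference of 1.22. The part of macrophage RNA in the oxidase differences was not tested.

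Few receptors for chemoattractants passed the test. Of 24 tested, of which 19 were above background, 4 passed, all higher in AT3, namely Ltb4r1, Ccr2, Fpr1 and Fpr2, beside 11.2% higher among genes above background. The list's median was 0.73 (0.24 with factors from genes above background), and 2 passed without the E0771 library labelled BALB/C. Ltb4r1, the high-affinity leukotriene B4 receptor, had 54.4, 259 and 85.97 CPM in AT3, against 27.1, 24.4 and 24.02 CPM in E0771, a log2 difference of 2.39 ± 0.41 (SE; adjusted p = 5.26e-04). The AT3 libraries all lay above the E0771 libraries, which were close to each other. Fpr1, the formyl peptide receptor, had 68.4, 379 and 152 CPM in AT3, against 48.2, 64.7 and 70.05 CPM in E0771, a log2 difference of 1.72 ± 0.38 (SE; adjusted p = 0.00719), and overlapped through AT3 neutrophil 1. Fpr1 and Fpr2 did not pass with factors from genes above background (adjusted p = 0.0689 and 0.133). Of 22 receptors for cytokines and growth factors, 5 passed, all higher in AT3, and these calls were lost without the E0771 library labelled BALB/C. The largest was Csf2rb2, a beta chain of the mouse interleukin-3 receptor, with 239.9, 1099.8 and 506 CPM in AT3, against 146, 196 and 214 CPM in E0771 (1.73 ± 0.43 log2, SE; adjusted p = 0.0165). Csf2rb2 and Csf2rb are near-identical copies, so their reads may have been split between them.

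Chemokines held calls in both directions. Of 18 tested, 4 were higher in AT3, namely Cxcl3, Cxcl2, Ccl6 and Ccl9, and 2 were lower, Ccl8 and Ccl7. Beside these stand 11.2% higher and 1.56% lower among genes above background, and 2.4% and 2.15% among all genes tested. Cxcl3, a ligand of Cxcr2, had 86.5, 363 and 209 CPM in AT3, against 33.1, 28.8 and 38.03 CPM in E0771, a log2 difference of 2.73 ± 0.42 (SE; adjusted p = 1.69e-04), with no overlap. Cxcl2, a second Cxcr2 ligand made by neutrophils themselves, had 1099, 3803 and 2809 CPM in AT3, against 620.4, 798 and 646 CPM in E0771, a log2 difference of 1.90 ± 0.51 (SE; adjusted p = 0.0277), again with no overlap. Ccl8, a monocyte attractant, had 5.58, 12.6 and 12.5 CPM in AT3, against 45.2, 56.1 and 96.1 CPM in E0771, a log2 difference of -2.65 ± 0.43 (SE; adjusted p = 3.35e-04), on 4, 9 and 8 counts in AT3 and 30, 39 and 48 counts in E0771. Ccl3, an inflammatory chemokine of neutrophils and macrophages, was at 0.99 ± 0.41 log2 (SE; adjusted p = 0.158). The list's median was 0.56, and -0.03 with factors from genes above background, so its sign turns with the centring. The counts were 2 higher and 1 lower without the E0771 library labelled BALB/C.

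Il1b, Tnf, Cd274, Nos2 and Ptgs2 did not pass, while Spp1, Arg1, Slc7a2 and Siglecf did. Il1b, an inflammatory cytokine, had 2445, 9894 and 7609 CPM in AT3, against 4017, 5666 and 5412 CPM in E0771 (0.40 ± 0.68 log2, SE; adjusted p = 0.782). Tnf had 27.9, 83.8 and 43.8 CPM in AT3, against 39.2, 64.7 and 46.03 CPM in E0771 (0.05 ± 0.33 log2, SE; adjusted p = 0.952). Cd274, which encodes the checkpoint ligand PD-L1, had 131, 995 and 439 CPM in AT3, against 355, 565 and 414 CPM in E0771 (0.23 ± 0.45 log2, SE; adjusted p = 0.819). The AT3 libraries enclosed the E0771 libraries for all of these, and the sign of each turned with factors from genes above background. Nos2, the inducible nitric oxide synthase, was at 0.93 ± 0.43 log2 (SE; adjusted p = 0.208), and Ptgs2, the inducible prostaglandin synthase, at 0.78 ± 0.54 (SE; adjusted p = 0.425). Of 23 cytokines and growth factors tested, Spp1, osteopontin, passed, and of 23 suppressive and checkpoint genes Arg1 and Slc7a2 did, all higher in AT3. Spp1 had 340.4, 699 and 374 CPM in AT3, against 140.0, 106 and 104 CPM in E0771, a log2 difference of 2.01 ± 0.49 (SE; adjusted p = 0.0156). In the cultured lines Spp1 averaged 683 CPM in AT3 and 46.5 CPM in E0771 cells. On a scale shared with macrophages, Spp1 stood at 19.1% of the macrophage level in AT3 and 108.7% in E0771, and Slc7a2 at 11.7% and 111.1%. The part of macrophage RNA in these differences was not tested. Siglecf, listed as Siglec5, a lectin described on long-lived tumour neutrophils, had 44.6, 116 and 119 CPM in AT3, against 34.6, 48.9 and 26.02 CPM in E0771 (1.32 ± 0.35 log2, SE; adjusted p = 0.0266) and was not above background. Of 18 genes described in tumour neutrophils, 7 were higher and none lower at a median of 0.80, and 0.25 with factors from genes above background, where 4 were higher and 1 lower. The count was 1 higher without the E0771 library labelled BALB/C. The counts of these lists stand beside 11.2% higher among genes above background. Besides Siglecf, Spp1, Hilpda, Ier3 and Xbp1 the 7 were Tnfrsf23, a decoy receptor, at 1.69 log2, and Cstb, a cathepsin inhibitor, at 1.75.

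Among stress and metabolic genes, Cdkn1a and part of the hypoxia list were higher in AT3, while the other lists held few calls. Cdkn1a, the cell-cycle inhibitor p21, had 352, 1987 and 1093 CPM in AT3, against 146, 184 and 228 CPM in E0771, a log2 difference of 2.62 ± 0.49 (SE; adjusted p = 0.00153), with no overlap. Of 29 hypoxia and glycolysis genes, 7 passed, all higher, at a median of 1.04 (0.50 with factors from genes above background), and 23 passed without AT3 neutrophil 1. Hilpda, a lipid-droplet protein induced by hypoxia, had 89.3, 1302 and 406 CPM in AT3, against 82.8, 114 and 154 CPM in E0771, a log2 difference of 2.36 ± 0.53 (SE; adjusted p = 0.00706), and overlapped through AT3 neutrophil 1. Egln3, a prolyl hydroxylase of the hypoxia response, and Bnip3l, a mitophagy receptor, were at 1.95 ± 0.46 and 1.86 ± 0.35 log2 (SE; adjusted p = 0.0109 and 0.0019). Without the E0771 library labelled BALB/C, 1 gene of the list passed. Of 21 genes of oxidative stress defence, Prdx5, Fth1 and Gpx1 passed, and Prdx5, a peroxiredoxin, had 232, 841 and 485 CPM in AT3, against 72.3, 101 and 114 CPM in E0771 (2.44 ± 0.42 log2, SE; adjusted p = 6.38e-04). Bcl2l1, which encodes the survival protein Bcl-xL, had 120.0, 506 and 256 CPM in AT3, against 63.2, 80.5 and 80.1 CPM in E0771 (1.98 ± 0.38 log2, SE; adjusted p = 0.00182), and with Bcl2a1b it made up the 2 of 20 survival genes that passed. Among 23 immediate early genes Egr2, Ier3 and Klf4 passed, among 19 NF-kB genes Rel, and among 19 ER stress genes Xbp1, all higher in AT3. These counts stand beside 11.2% higher among genes above background, and the NF-kB and ER stress medians were 0.15 and 0.13, below the 0.46 of genes above background, and -0.36 and -0.38 with factors from those genes. Only 1 immediate early gene and 1 oxidative stress gene passed without the E0771 library labelled BALB/C. Of 16 matrix remodelling genes edgeR called 0, with 7 at an unadjusted p under 0.05, and DESeq2 called 2, both higher, beside 2.4% higher among all genes.

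**Figure D3:**
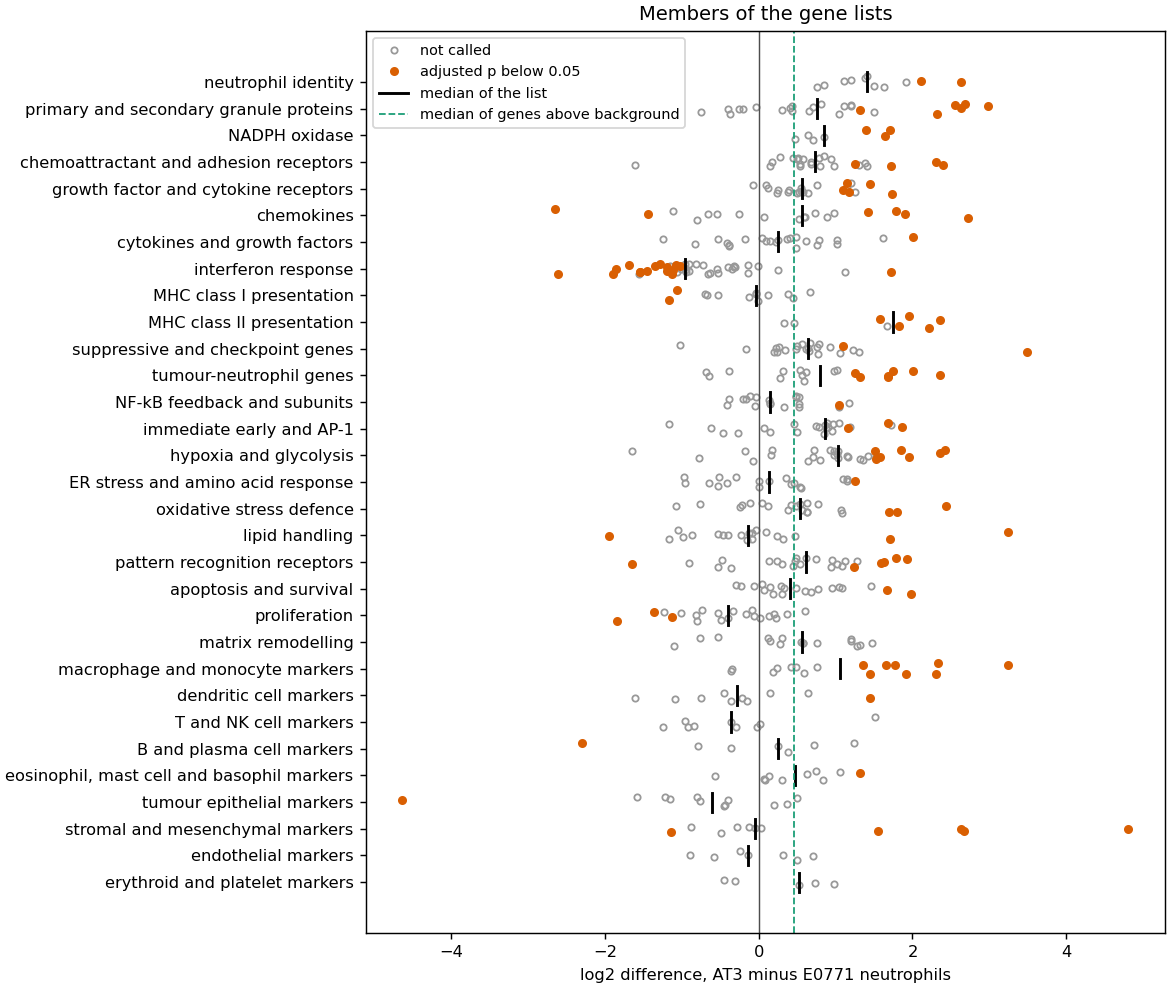
Log2 difference, AT3 minus E0771 neutrophils, of every tested member of the 31 gene lists. Filled points passed an adjusted p of 0.05, black bars are list medians and the dashed line is the median of genes above background at 0.46. The interferon list lies left of 0 at a median of -0.95 while most myeloid lists lie right of it; the leftmost point, Cldn3, had no count in AT3, so its fitted value is not a bound.

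Fn1 had the largest log2 difference of the genes named by size. Fn1, which encodes fibronectin (chr1:71585520-71653200, minus strand, mm10), had 3934, 6877 and 5228 CPM in AT3, against 172, 125 and 278 CPM in E0771, a log2 difference of 4.81 ± 0.70 (SE; adjusted p = 1.00e-04). The AT3 libraries lay far above the E0771 libraries with no overlap. Arg1, the arginine-degrading enzyme of suppressive myeloid cells, had 282, 425 and 233 CPM in AT3, against 24.1, 7.19 and 56.04 CPM in E0771, a log2 difference of 3.49 ± 0.42 (SE; adjusted p = 5.97e-06), on 16, 5 and 28 counts in E0771. Apoe, a lipid carrier, had 1445, 1764 and 1082 CPM in AT3, against 128, 131 and 194 CPM in E0771, a log2 difference of 3.25 ± 0.51 (SE; adjusted p = 2.69e-04). Lyz2, lysozyme, had 3342, 5621 and 2699 CPM in AT3, against 488, 463 and 528 CPM in E0771, a log2 difference of 2.98 ± 0.58 (SE; adjusted p = 0.00224). S100a4, a calcium-binding protein of motile cells, had 299.9, 507 and 322 CPM in AT3, against 54.2, 67.6 and 80.1 CPM in E0771, a log2 difference of 2.49 ± 0.32 (SE; adjusted p = 1.32e-05). None of these overlapped between the groups, which the choice of the genes fixes. AT3 neutrophil 1 was not the lowest AT3 library for Arg1, Apoe or Lyz2.

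Macrophages of the same tumours held more of these transcripts, and their marker genes moved in the same direction. In sorted bulk samples, a change in the number of cells of a type and a change in RNA per cell cannot be told apart. Of 16 macrophage and monocyte markers, 8 were higher in AT3 neutrophils at a median of 1.06 (0.67 with factors from genes above background), among them C1qa, C1qb and C1qc, the chains of complement C1q, Cx3cr1, Ccr2 and Csf1r. Their summed level was 4992, 7008 and 4061 CPM in AT3, against 1790.4, 1826 and 1849 CPM in E0771, with 13 of 16 above background and none at 0. On the scale shared with macrophages, that sum in AT3 neutrophils was 13.4% of the sum in AT3 macrophages, and in E0771 neutrophils 12.4% of that in E0771 macrophages. Fn1 stood at 9.86% of the macrophage level in AT3 and 7.99% in E0771, Arg1 at 10.8% and 13.6%, Lyz2 at 8.59% and 13.96%, and Apoe at 18.5% and 9.402%. Among the 16 markers themselves this percentage was lowest for a C1q chain in both tumours, 7.59% for C1qa in AT3 and 6.47% for C1qb in E0771, and highest for Ly6c2, a monocyte gene. Cd68, a lysosomal macrophage protein, stood at 27.5% in AT3 and 20.7% in E0771. Fn1, Arg1 and Lyz2 lay within the range of the list without Ly6c2 in both tumours. S100a4 lay within it in E0771 at 26.4% but above it in AT3 at 49.6%. The 8 higher markers stand beside 11.2% higher among genes above background, and 3 of the 16 passed without the E0771 library labelled BALB/C. In the cultured lines, scaled apart from these libraries, Fn1 averaged 480 CPM in AT3 and 18.3 CPM in E0771 cells, and S100a4 515 and 69.1 CPM. Arg1, Apoe and Lyz2 averaged 3.81, 3.19 and 2.49 CPM in AT3 and 2.48, 5.68 and 5.95 CPM in E0771 cells. The parts of macrophage and of tumour-cell RNA in these differences were not tested.

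Genes of antigen presentation on MHC class II, which macrophages and dendritic cells express, belonged to the same group. Of 8 tested, 5 were higher in AT3 at a median of 1.75 (1.23 with factors from genes above background, where 3 passed), and 3 passed without the E0771 library labelled BALB/C. H2-Ab1, a class II beta chain, had 326, 1008 and 379.8 CPM in AT3, against 113, 124 and 96.1 CPM in E0771, a log2 difference of 2.36 ± 0.47 (SE; adjusted p = 0.00258). Its level was 14.9% of the macrophage level in AT3 and 8.82% in E0771. Fcgr2b, the inhibitory IgG receptor, had 399, 709.9 and 363 CPM in AT3, against 154, 144 and 130.1 CPM in E0771 (1.78 ± 0.35 log2, SE; adjusted p = 0.00252), at 12.6% and 13.2% of the macrophage level. With Tyrobp, Fcgr3, Fcer1g and Tlr1 it made up the 5 pattern recognition and Fc receptor genes of 25 that were higher, and Tlr9, a sensor of DNA, was the 1 lower, where 1 was higher and 1 lower without the E0771 library labelled BALB/C. Of 20 lipid-handling genes Apoe and Abca1, a cholesterol exporter, were higher and Lpl, lipoprotein lipase, lower at -1.94 ± 0.33 log2 (SE; adjusted p = 4.82e-04). The higher counts of these lists stand beside 11.2% higher among genes above background, and the lower counts beside 2.15% lower among all genes tested.

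Interferon-response genes were lower in AT3 neutrophils. Of 42 tested, 15 were lower and 1 higher, at a median of -0.95, beside 2.15% lower among all genes tested. With factors from genes above background 29 were lower and 1 higher, at a median of -1.42, and without AT3 neutrophil 1 the counts were 15 and 2. In 25 of the 42, all AT3 libraries lay below all E0771 libraries, beside 11.9% of all genes tested. Without the E0771 library labelled BALB/C, 7 were lower. Leading this group among genes above background were Ifit2, Ifit3 and Ifit1, RNA-binding antiviral proteins whose genes lie together on chromosome 19 (chr19:34550694-34576419, chr19:34583531-34588731 and chr19:34640871-34650009, plus strand, mm10), and Slfn5, a Schlafen family gene (chr11:82951349-82964840, plus strand). Ifit1 had 53.01, 197 and 184 CPM in AT3, against 438, 594 and 542 CPM in E0771, a log2 difference of -1.86 ± 0.39 (SE; adjusted p = 0.00457). AT3 neutrophil 1 was the lowest, and the other AT3 libraries were also below the E0771 libraries. Ifit2 had 53.01, 43.3 and 65.6 CPM in AT3, against 219.8, 184 and 196 CPM in E0771, a log2 difference of -1.89 ± 0.31 (SE; adjusted p = 3.37e-04). Ifit3 had 30.7, 57.3 and 57.8 CPM in AT3, against 120.5, 119 and 188 CPM in E0771, a log2 difference of -1.54 ± 0.29 (SE; adjusted p = 0.00178). Slfn5 had 116, 170.5 and 186 CPM in AT3, against 479, 565 and 474 CPM in E0771, a log2 difference of -1.69 ± 0.36 (SE; adjusted p = 0.00502). None of these overlapped between the groups, which the choice of the genes fixes. Reads of Ifit3 and its close copy Ifit3b may have been split between them.

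Other antiviral genes below the E0771 level were Mx1, at -1.54 log2, Irf7, the factor that amplifies interferon production, at -1.45, and Irgm1, an immunity-related GTPase that was not above background, at -2.61 ± 0.39 (SE; adjusted p = 1.21e-04). Isg15, Rsad2 and Oas3 were at -1.16, -0.82 and -0.95 log2 and did not pass. Ifitm1, a membrane protein that blocks virus entry, was the member higher in AT3, with 914, 3786 and 2149 CPM in AT3, against 450.2, 722 and 909 CPM in E0771 (1.72 ± 0.50 log2, SE; adjusted p = 0.0397). Outside the list, Ifi204, Ly6a and Ms4a4c were among the 10 lower genes named by size. Ifi204, an interferon-inducible DNA sensor, had 29.3, 105 and 98.5 CPM in AT3, against 194, 263 and 206 CPM in E0771, a log2 difference of -1.52 ± 0.34 (SE; adjusted p = 0.00696). Ly6a, the surface protein Sca-1, had 44.6, 103 and 57.8 CPM in AT3, against 170.2, 199.9 and 222 CPM in E0771, a log2 difference of -1.52 ± 0.31 (SE; adjusted p = 0.00349). Ms4a4c, a membrane-spanning protein of myeloid cells, had 37.7, 37.7 and 26.6 CPM in AT3, against 113, 127 and 108 CPM in E0771, a log2 difference of -1.76 ± 0.32 (SE; adjusted p = 0.00128). Neither these nor Ifi204 overlapped between the groups, which the choice of the genes fixes. Of 13 MHC class I genes, Nlrc5, the activator of class I transcription, and H2-T24 were lower, at -1.17 ± 0.33 and -1.06 ± 0.31 log2 (SE; adjusted p = 0.0368 and 0.0426), and B2m, the light chain, was at -0.04 and not called. Beside these stand 2.15% lower among all genes tested.

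Many interferon genes are switched on through the interferon-stimulated response element, written here in its core form GAAANNGAAA and searched on both strands. The promoters of Ifit1, Ifit3 and Slfn5 are shown as lower genes that hold a match. The promoter of Irf7, also a lower gene, was searched too and held 0 matches. Ifit2, lower as well, has 2 RefSeq promoters. The Ifit2 window examined here, chr19:34550444-34550693, held 0 matches, and its other promoter is not described. Each line gives the 250 bases before the RefSeq start site (GRCm38.p6, the build mm10), with matches in capitals. The positions are chr19:34640639-34640888, chr19:34583279-34583528 and chr11:82951852-82952101, all on the plus strand, and TTTC before another TTTC in capitals is the element read on the opposite strand.
Ifit1: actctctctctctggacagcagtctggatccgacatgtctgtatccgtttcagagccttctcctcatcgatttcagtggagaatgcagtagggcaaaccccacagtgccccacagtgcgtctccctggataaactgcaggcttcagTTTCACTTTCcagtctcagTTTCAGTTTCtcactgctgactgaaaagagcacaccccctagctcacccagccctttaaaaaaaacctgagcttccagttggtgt
Ifit3: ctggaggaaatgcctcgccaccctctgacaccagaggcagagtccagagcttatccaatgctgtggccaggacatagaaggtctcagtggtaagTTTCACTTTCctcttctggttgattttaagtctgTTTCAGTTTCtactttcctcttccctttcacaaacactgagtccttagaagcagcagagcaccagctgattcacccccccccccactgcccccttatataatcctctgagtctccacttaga
Slfn5: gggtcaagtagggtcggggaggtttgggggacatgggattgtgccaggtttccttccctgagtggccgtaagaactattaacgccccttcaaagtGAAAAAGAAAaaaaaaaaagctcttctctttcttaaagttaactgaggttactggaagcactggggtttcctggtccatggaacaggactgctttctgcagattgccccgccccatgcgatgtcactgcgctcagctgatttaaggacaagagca
Over the RefSeq windows from 250 bases before to 50 after the start site, the motif was present in 3.99% of all 27025 genes and in 5.99% of 1518 genes above background. It was present in 7 of 20 genes above background called lower (35.0%) and in 8 of 168 called higher (4.76%). Of 33 tested interferon-list genes with a promoter in the table, 19 held it (57.6%), with 7 of 12 called lower (58.3%) and 12 of 20 not called (60.0%). A match is a string of letters and not a measured binding site.

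Serpinh1 and Shmt2 were the other lower genes named by size. Serpinh1, the chaperone of collagen, had 30.7, 64.3 and 42.2 CPM in AT3, against 163, 175 and 172 CPM in E0771, a log2 difference of -1.89 ± 0.29 (SE; adjusted p = 1.69e-04), and the E0771 libraries were nearly equal. Shmt2, the mitochondrial serine hydroxymethyltransferase of one-carbon metabolism, had 12.6, 54.5 and 43.8 CPM in AT3, against 120.5, 106 and 118 CPM in E0771, a log2 difference of -1.64 ± 0.34 (SE; adjusted p = 0.00386), with AT3 neutrophil 1 lowest. In the cultured lines Serpinh1 averaged 297 CPM in AT3 and 785 CPM in E0771 cells, and Shmt2 209 and 323 CPM. Of 21 proliferation genes, Cdc20, Cdk1 and Ccna2 were lower, beside 2.15% lower among all genes tested, and none of these 3 was above background. Cdc20, which triggers anaphase, had 8.37, 13.97 and 9.38 CPM in AT3, against 49.7, 31.6 and 34.02 CPM in E0771 (-1.85 ± 0.44 log2, SE; adjusted p = 0.0116).

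Markers of other cells were mostly at background in both groups. None of the dendritic cell, T and NK cell, B cell, eosinophil, mast cell, basophil and endothelial markers was above background, and T and NK markers summed to 213, 113 and 186 CPM in AT3, against 232, 236 and 206 CPM in E0771. Eosinophil, mast cell and basophil markers summed to 342, 345 and 399 CPM in AT3, against 260.5, 257 and 240.2 CPM in E0771, with no overlap, while the sums of dendritic cell, B cell and endothelial markers overlapped. Among the tested members, Clec9a and Siglecf, which eosinophils share, were higher and Cd79a lower in AT3, and in T and NK and in endothelial markers edgeR and DESeq2 both called 0, with 4 and 1 at an unadjusted p under 0.05. Tumour epithelial markers summed to 215, 179 and 142 CPM in AT3, against 229, 242 and 242 CPM in E0771. Cldn3, a tight-junction protein, was the member called, with 1, 4 and 3 counts in E0771 and 0 in each AT3 library. Stromal markers summed to 4595, 7864 and 6189.7 CPM in AT3, against 893, 828 and 1005 CPM in E0771, mostly Fn1. Dcn and Lum, proteoglycans of fibroblasts, and Col3a1 were also higher and Pdgfrb, a receptor of pericytes and fibroblasts, lower at -1.14 log2, none of them above background, Dcn with 32.1, 108 and 172 CPM in AT3, against 19.6, 15.8 and 12.01 CPM in E0771.

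Genes of the cultured tumour lines gave an answer that depends on how they were chosen. By the planned limit of 10 CPM in T11 and 2208L neutrophils, 2 AT3-line genes summed to 34.9, 112 and 106 CPM in AT3 neutrophils, against 101, 77.7 and 74.1 CPM in E0771 neutrophils, and neither passed. By the same limit 8 E0771-line genes summed to 169, 254 and 229.8 CPM in AT3, against 223, 210.0 and 184 CPM in E0771, and of 7 tested 1 was higher and 1 lower. Both sums overlapped between the tumours. A wider rule, chosen after that limit had left so few genes, took for each line 30 genes that it expressed well above the other line and that were not above background in T11 and 2208L neutrophils. By this rule the AT3-line genes summed to 2201, 3452 and 3084 CPM in AT3 neutrophils, against 1711, 1745 and 1701 CPM in E0771 neutrophils, and 8 of 30 passed, all higher. The E0771-line genes summed to 1195, 1494 and 1383 CPM in AT3, against 2292, 2455 and 2121 CPM in E0771, and 5 of 30 passed, all lower. The calls stand beside 2.4% higher and 2.15% lower among all genes tested. The sums by this wider rule did not overlap between the tumours, and in T11 and 2208L neutrophils they averaged 2037 and 1301 CPM. In macrophages, scaled apart from these libraries, the AT3-line genes summed to 3215 CPM in AT3 and 1818 CPM in E0771. The E0771-line genes summed there to 1464 CPM in AT3 and 2263 CPM in E0771. The part of tumour-cell RNA in other differences was not tested.

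Set against the same difference in macrophages, few genes passed a test for a different size of the neutrophil difference. In a fit of 24 sorted libraries, 393 of 19056 genes (2.06%) had an AT3 minus E0771 difference in neutrophils that differed from that in macrophages, 268 more positive in neutrophils (1.41%) and 125 more negative (0.656%). Of the 20 genes named by size, Prok2 and Cdkn1a did. Cxcl3, Slpi and Ngp did not pass at 2.79 ± 0.89, 2.98 ± 0.96 and 3.09 ± 1.16 log2 (SE; adjusted p = 0.0787, 0.0822 and 0.141). A gene that did not pass is therefore not shown to differ alike in the cell types. Ly6a and Ccl8 missed the threshold in this fit (adjusted p = 0.0882 and 0.0573). Both passed with a replicate block within each tumour, added after seeing the data (adjusted p = 0.00226 and 0.0419), and were more positive in neutrophils. Cdkn1a averaged 911 ± 640.2 CPM in AT3 and 149.5 ± 32.5 CPM in E0771 neutrophils, and 439 ± 109 CPM in AT3 and 400.0 ± 47.6 CPM in E0771 macrophages (SD, n = 3 each), so that the difference in neutrophils exceeded that in macrophages by 2.48 ± 0.53 log2 (SE; adjusted p = 0.00708). Prok2 was at 0 in all AT3 macrophage libraries and at 3.23 ± 3.45 CPM in E0771 macrophages, so its fitted difference of 7.91 ± 1.64 log2 (SE; adjusted p = 0.00572) depends on the prior count. Among list members, Siglecf at 3.40 ± 0.70 and Lpl at 2.01 ± 0.47 were more positive in neutrophils, and Slc7a2, an arginine transporter, at -3.21 ± 0.46 and Spp1 at -2.50 ± 0.60 more negative (log2, SE; adjusted p = 0.00519, 0.015, 8.35e-05 and 0.0183). For Fn1 the difference between the cell types was 0.31 ± 0.79 log2 (SE; adjusted p = 0.874), and for Lyz2 -0.70 ± 0.66 (SE; adjusted p = 0.598).

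**Figure D4:**
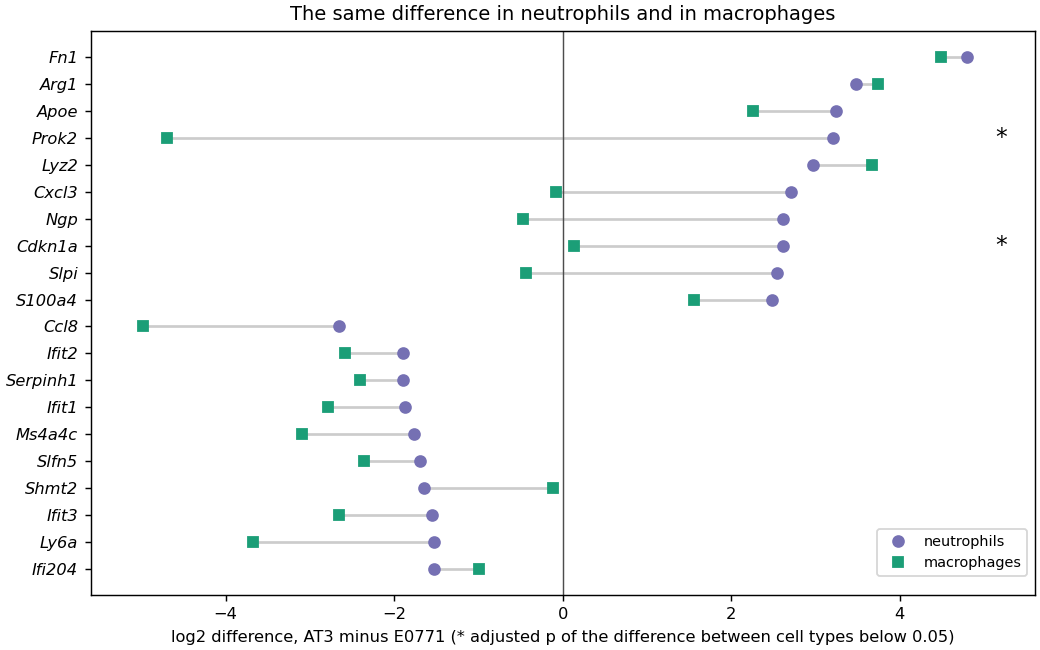
Log2 difference, AT3 minus E0771, in neutrophils (circles) and in macrophages (squares) for the 20 genes named by size, from the fit of 24 sorted libraries, with an asterisk where the difference between the cell types passed an adjusted p of 0.05. Fn1, Arg1, Lyz2 and the interferon genes lie on the same side in both cell types. Prok2, Cxcl3, Ngp and Slpi lie on opposite sides, and the macrophage value of Prok2 rests on 0 counts in AT3.

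Interferon genes were lower in AT3 in both cell types. In macrophages 31 of 42 were lower in AT3 at a median log2 difference of -2.10, beside 12.7% lower among all genes tested. In 10 of the 42 the difference was the more positive one in neutrophils, beside 1.41% of all genes tested, and the other members did not pass. Ifit1 averaged 116 ± 63.1 CPM in AT3 and 422 ± 64.9 CPM in E0771 neutrophils, and 18.6 ± 7.44 CPM in AT3 and 130.2 ± 9.77 CPM in E0771 macrophages. The neutrophil levels of Ifit1 exceeded the macrophage levels in both tumours, as did those of Ifit3.

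Between 2208L and T11 neutrophils, the other pair in the series, most interferon genes differed in the opposite direction, but most higher genes did not. Of the higher genes named by size, all but S100a4 had a positive 2208L minus T11 difference. Apoe, Lyz2, Cdkn1a and Arg1 were at 4.36, 2.44, 2.33 and 1.88 log2. Of the lower genes, Ccl8, Ms4a4c, Shmt2 and Ifi204 were not called in that pair, and Ly6a was lower in 2208L too, at -1.82 log2. In that pair 34.6% of all genes tested passed, and receptor background differed too, at 5175 ± 1200.4 CPM in 2208L and 15164 ± 3051 CPM in T11 (SD, n = 3 each). Ifit1 averaged 334 ± 95.01 CPM in 2208L and 76.9 ± 26.3 CPM in T11, and the AT3 minus E0771 difference less the 2208L minus T11 difference was -3.98 ± 0.56 log2 (SE; adjusted p = 2.03e-05). Of the 42 interferon genes 34 were higher in 2208L, beside 19.5% of all genes tested. Other lists moved that way too, with 17 of 19 NF-kB genes and 25 of 29 hypoxia genes higher in 2208L, though 4 of 18 chemokines. The AT3 minus E0771 difference was the more negative for 35 interferon, 6 NF-kB and 3 hypoxia genes, beside 5.51% of all genes tested. Serpinh1 averaged 77.5 ± 16.9 CPM in 2208L and 12.2 ± 2.25 CPM in T11, and S100a4 5.01 ± 1.74 CPM in 2208L and 53.4 ± 21.6 CPM in T11, each opposite to the order in AT3 and E0771. Fn1 averaged 4878 ± 917 CPM in 2208L and 516 ± 399 CPM in T11, and its differences in the pairs were not called different (1.57 ± 0.85 log2, SE; adjusted p = 0.236). Over all genes tested 9.49% departed between the pairs. The balance turned with the centring, 685 more positive (3.98%) and 948 more negative (5.51%) by the main factors, and 3174 and 211 with factors from genes above background.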

How the data were processed

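RNA was measured in sorted neutrophils, with macrophages and cultured lines of the same series for comparison. The authors deposited raw counts per gene symbol for 24054 symbols. The tools named per the submitters' processing notes are STAR 2.4.2a and bcl2fastq 2.17, with the build mm10. The counting program, its annotation and its use of strand are not given in the sources used here, so reads of paralogs and overlapping genes cannot be told apart. Libraries were matched to groups by titles. The 3 columns named PyMTE match no title and were not used. Replicates are labelled as a triplicate per group.

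Symbols were matched to GENCODE M21 for coordinates and exon lengths, 22750 by symbol and 947 by gene ID or synonym, and 357 were not matched. Rn45s was left out of library sizes and tests. Differences were tested in R 4.3.3 with the quasi-likelihood test of edgeR 4.0.16, TMM factors and filterByExpr (minimum count 10, minimum total 15), on 12 neutrophil libraries, or on 24 sorted libraries against macrophages, with Benjamini-Hochberg adjustment over all genes tested. The SE is the log2 difference over the square root of its F value. CPM are scaled by TMM factors over the libraries of the fit, except receptor CPM, which are shares of counts outside Rn45s. Values in 12 and 24 libraries are on different scales. In simulated counts at these depths, 94% and 100% of genes changed by -2 and 2 on the log2 scale were called, 32% and 30% of those changed by -1 and 1, and 0.0368% of unchanged genes. All simulated libraries shared a mean profile apart from the changed genes, with a fixed spread and no difference in background. Between real replicates the chi-square per degree of freedom was 4.68 to 10.7 in AT3 and 1.55 to 1.61 in E0771. The simulated shares therefore do not give the power or the false calls in these libraries. Summaries used scipy 1.17.1, numpy 2.4.6 and pandas 2.3.3 under Python 3.11.15.

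Genes are named by rule: the 10 higher and 10 lower with the largest log2 difference among called genes above background with no overlap between the groups and log2 CPM averaging 4 or more, up to 4 called members of each of 31 lists, and genes named in advance. The members and lists were chosen with earlier results of these data known. Genes given without a per-library value, the genes of the macrophage markers and not-called list members among them, illustrate a list and were chosen after values were seen. Alternatives were DESeq2 1.42.0, other factors and filters, only 6 libraries, a replicate block and each library left out. Counts limit precision, and no interval beyond the SE is given.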

Additional observations from a re-analysis of the deposited data

Results flagged for a closer look

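In 2 genes the AT3 minus E0771 difference was not the same in neutrophils and macrophages by the interaction test without a replicate block. It was more positive in neutrophils by 7.91 log2 for Prok2 (adjusted p = 0.00572), where AT3 macrophages had 0 counts and the fitted value is no bound, and by 2.48 for Cdkn1a (adjusted p = 0.00708).

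In 10 genes the AT3 minus E0771 difference departed from the 2208L minus T11 difference in neutrophils by the interaction test. It was more positive by 5.83 log2 for S100a4 (adjusted p = 3.34e-08). It was more negative for 9 genes, by -2.93 for Ccl8, -3.50 for Ifit2, -4.55 for Serpinh1, -3.98 for Ifit1, -2.27 for Ms4a4c, -3.14 for Slfn5, -2.13 for Shmt2, -2.96 for Ifit3 and -2.45 for Ifi204, with adjusted p-values between 6.11e-08 and 0.00521. The 2208L and T11 libraries also differed in receptor background, and its part in these values was not tested.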

How the results depend on the processing

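Of 79 called named genes, 34 passed in every setting that could be run, none changed sign, and leaving out 1 library lost between 0 and 38 of them. The replicate block gave 606 calls in place of 782 (300 higher, 306 lower), 310 in place of 393 against macrophages and 1400 in place of 1633 against the other pair. Same-numbered libraries correlated by 0.26, 0.12 and 0.03 in their deviations, so the numbers were not taken to pair them. Column names give neutrophil and macrophage libraries of a tumour a shared number, whose deviations correlated by -0.06 to 0.20. A replicate block within each tumour, added after seeing the data, gave 290 calls against macrophages (173 higher, 117 lower). Prok2 and Cdkn1a were among them, as were Ly6a and Ccl8, which did not pass without the block. Calls between AT3 and E0771 neutrophils moved to 284 with only their 6 libraries, 450 with factors from genes above background and 466 with only those genes tested, where fewer genes enter the adjustment and the scaling is recentred too (245 higher, 221 lower). Leaving out 1 library gave 209 to 2691. Against macrophages DESeq2 gave 721 calls, and leaving out 1 library gave 121 to 688. Against the other pair, calls moved to 3385 with factors from genes above background and 382 with only those genes, and leaving out 1 library gave 694 to 3804. The cause of these moves was not tested. The receptor background ratio stayed within its spread.

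Reversals fell on genes that were not called. Il1b was at -0.14 with factors from, or only, genes above background. Tnf was at -0.45 with such factors, -0.44 with only those genes, -0.49 without AT3 neutrophil 2 and -0.10 without E0771 neutrophil 1. Cd274 was at -0.40 in both of these settings and -0.64 without AT3 neutrophil 2, where Nos2 was at -0.34. Over the libraries left out in turn, Tnf ran from -0.49 to 0.36, Nos2 from -0.34 to 1.32 and Cd274 from -0.64 to 0.70. The rule for tumour-line genes was changed after seeing the data, as stated with its result. Between 470712 and 993686 counts outside Rn45s per library limit what can be seen. Differences of 1 on the log2 scale were mostly missed in simulated counts, where all libraries had a fixed spread.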
